A study of Homo sapiens with 6 samples.

Results

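NRF2 targets and aldo-keto reductases were followed in 2 ovarian carcinoma cell lines as 10 genes of the 19775 genes that the array names: the glutathione synthesis genes GCLC and GCLM, the quinone reductase NQO1, the thioredoxin system genes TXNRD1 and SRXN1, the haem oxygenase HMOX1, and the aldo-keto reductases AKR1B10, AKR1C1, AKR1C2 and AKR1C3. The genes were taken by name, and every probe set (a group of short probes read as 1 value) whose only gene symbol in the platform annotation was one of the 10 was used. This gave 23 probe sets of the 54675 on the array. A further probe set that carries AKR1C1 and AKR1C2 together was not used. Of the 23 probe sets, 17 passed the filter on dim signal (at or above the array's own median on at least 2 of the 6 arrays, the median taken over probe sets with 1 gene symbol, an intensity of 102 to 122), and these covered all 10 genes.

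The total RNA was hybridised to 6 arrays of the Affymetrix U133 Plus 2.0 type, 3 for Caov-3 and 3 for SKOV-3, both established human ovarian carcinoma lines. In each line, 1 array held cells given siltuximab (CNTO328, an antibody that binds IL-6) for 4 h and then interleukin-6 (IL-6) at 30 ng/ml for 1 h, 1 array held cells given the same IL-6 alone, and 1 array held untreated cells. The RNA of 3 flasks was pooled for each array, so a treatment in a line has 1 value and no replicate. For siltuximab the labels state the time but no dose. The 3 arrays of a line differ in treatment, so a mean ± SD over them is a spread over treatments, and each line stands for itself, not for a class of tumours.

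The line labels met 1 measurement that goes against them. SKOV-3 is known for amplification of ERBB2, the gene of the HER2 receptor, yet ERBB2 (216836_s_at) read 1067, 1243 and 1017 on the Caov-3 arrays with siltuximab plus IL-6, with IL-6 and untreated, against 733, 580 and 648 on the SKOV-3 arrays. The lines are therefore named throughout as the arrays are labelled, and every direction between them rests on those labels. Epithelial markers were bright in Caov-3 and only in part in SKOV-3. On all 3 Caov-3 arrays 5 of 5 (KRT8, KRT18, KRT19, EPCAM, CDH1) lay above the median. The same held for 3 of 5 on all 3 SKOV-3 arrays, where KRT19 and CDH1 were dim. Of the leukocyte markers, 2 of 5 lay above the median on all Caov-3 arrays (summed intensity 884 to 970) and 1 of 5 on all SKOV-3 arrays (summed 367 to 740). Of the fibroblast and endothelial markers, 2 of 4 did so in each line, COL1A1 and PECAM1, with sums of 4809 to 5767 in Caov-3 and 425 to 649 in SKOV-3. On the Caov-3 IL-6 array the ratio of the 5′ to the 3′ probe set of ACTB was 0.494, against 0.643 to 0.767 on the other 5 arrays. The same ratio for GAPDH was 1.05 on that array, within the 0.957 to 1.07 of the other 5. The part of these differences in the results was not tested.

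NRF2 (gene NFE2L2) is a transcription factor that KEAP1 holds at a low level by presenting it to the CUL3 and RBX1 ubiquitin ligase. Electrophiles and oxidants modify KEAP1, NRF2 then accumulates, pairs with a small MAF protein and binds antioxidant response elements, which BACH1 can occupy instead. Its targets rebuild glutathione and thioredoxin, reduce quinones and carbonyls and break down haem, and in ovarian carcinoma the pathway is best known from work on tolerance of platinum drugs. IL-6 acts through the gp130 receptor, JAK kinases and STAT3. The study compared what IL-6 does to gene expression with and without siltuximab.

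The promoters are shown for the glutathione synthesis genes, which moved together between the lines, for TXNRD1, which moved the other way, and for AKR1C1 and AKR1C2, whose probe sets are hard to tell apart. RefSeq promoters (build GRCh38.p14, 250 bases before to 50 after a start) were found for 8 of the 10 genes, 10 promoters in all, AKR1C3 and TXNRD1 having 2 each. AKR1B10, on chromosome 7, and HMOX1, on chromosome 22, had none in the table. Each is written 5′ to 3′ on the gene's own strand, and capitals mark matches to the core of the antioxidant response element, TGACNNNGC, searched on both strands.
GCLM, chr1:93909381-93909680, minus strand: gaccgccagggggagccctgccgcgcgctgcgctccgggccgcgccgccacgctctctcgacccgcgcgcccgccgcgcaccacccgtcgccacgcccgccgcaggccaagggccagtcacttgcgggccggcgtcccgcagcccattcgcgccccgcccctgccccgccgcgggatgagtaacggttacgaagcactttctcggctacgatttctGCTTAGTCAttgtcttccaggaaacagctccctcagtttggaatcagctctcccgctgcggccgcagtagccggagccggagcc
GCLC, chr6:53545052-53545351, minus strand: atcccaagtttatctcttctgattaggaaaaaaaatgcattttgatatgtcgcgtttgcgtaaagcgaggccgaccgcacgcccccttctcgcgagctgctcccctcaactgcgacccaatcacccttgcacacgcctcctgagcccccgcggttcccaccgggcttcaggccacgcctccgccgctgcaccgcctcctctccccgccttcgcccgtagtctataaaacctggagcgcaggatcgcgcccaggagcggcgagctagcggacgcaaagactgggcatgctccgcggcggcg
TXNRD1, chr12:104215529-104215828, plus strand: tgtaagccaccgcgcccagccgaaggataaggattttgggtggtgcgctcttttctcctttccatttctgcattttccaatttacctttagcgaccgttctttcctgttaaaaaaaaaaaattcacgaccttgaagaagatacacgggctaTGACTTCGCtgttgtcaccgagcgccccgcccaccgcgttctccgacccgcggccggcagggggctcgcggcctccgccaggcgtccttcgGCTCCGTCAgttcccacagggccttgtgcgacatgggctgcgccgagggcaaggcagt
TXNRD1, chr12:104286782-104287081, plus strand: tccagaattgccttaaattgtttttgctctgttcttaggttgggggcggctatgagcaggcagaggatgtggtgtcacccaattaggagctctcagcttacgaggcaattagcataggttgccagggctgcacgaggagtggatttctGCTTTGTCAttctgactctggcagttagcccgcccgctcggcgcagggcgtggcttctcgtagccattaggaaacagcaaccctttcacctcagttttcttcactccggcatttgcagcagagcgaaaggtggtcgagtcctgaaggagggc
AKR1C1, chr10:4963165-4963464, plus strand: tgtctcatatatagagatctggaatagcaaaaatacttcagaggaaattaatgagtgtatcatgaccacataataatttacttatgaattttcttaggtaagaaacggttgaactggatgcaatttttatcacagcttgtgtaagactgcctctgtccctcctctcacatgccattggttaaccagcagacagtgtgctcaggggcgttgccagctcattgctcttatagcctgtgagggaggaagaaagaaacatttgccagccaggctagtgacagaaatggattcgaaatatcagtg
AKR1C2, chr10:5003808-5004107, minus strand: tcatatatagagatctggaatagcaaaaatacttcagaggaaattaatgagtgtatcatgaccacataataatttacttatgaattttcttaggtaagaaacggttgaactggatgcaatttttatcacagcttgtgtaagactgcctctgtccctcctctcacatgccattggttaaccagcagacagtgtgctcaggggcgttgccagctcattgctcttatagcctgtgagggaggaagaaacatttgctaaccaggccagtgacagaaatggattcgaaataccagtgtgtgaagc

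The core was found in 3 of the 10 promoters, against 13.3% (4687) of all 35116 promoters in the table. GCLM held GCTTAGTCA, a match on the reverse strand, from -34 to -26 relative to the start. The first TXNRD1 promoter held TGACTTCGC from -99 to -91 and, in reverse, GCTCCGTCA from -8 to 0, and the second held GCTTTGTCA in reverse from -102 to -94. A match describes these letters only, and the other 7 promoters simply lack them in this window. The AKR1C1 and AKR1C2 promoters were identical at 288 of 292 aligned bases (98.6%), while AKR1C3 promoters shared 77.7% to 81.0% with them.

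Caov-3 carried more RNA of the glutathione synthesis genes than SKOV-3, somewhat more NQO1 and more AKR1B10, and less SRXN1, TXNRD1 and AKR1C3. The AKR1C3 call was lost in some fits that left out an array. AKR1C1, AKR1C2 and HMOX1 were not distinguished between the lines. The lines were compared in a limma fit on log2(intensity + 17.1), with treatment as a block and with p-values adjusted by Benjamini-Hochberg over the 23169 probe sets tested. The residual of this fit is how treatment differences differ between the lines. Its SEs and p-values therefore do not measure variation between separate cultures of a line. Of the 17 probe sets, 9 were higher and 3 lower in Caov-3 at an adjusted p under 0.05. The 9 include AKR1B10 206561_s_at and GCLM 236140_at, which met the filter through Caov-3, so their calls are no support for that direction. Since 62.8% of all probe sets tested were called (31.5% higher and 31.3% lower), the count of 12 of 17 is near what the whole array gave, and it is the individual genes and their sizes that follow.

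GCLC encodes the catalytic subunit of glutamate-cysteine ligase, the enzyme that limits glutathione synthesis. GCLC 202923_s_at read 4589, 4855 and 4658 in Caov-3 with siltuximab plus IL-6, with IL-6 and untreated, against 1453, 1522 and 1471 in SKOV-3. The lines did not overlap, and within a line the 3 treatments lay close together. The log2 difference was 1.65 ± 0.071 (SE), a 3.15-fold higher value in Caov-3 (limma, adjusted p = 4.27e-05). A separate GCLC probe set, 202922_at, read 1926, 2062 and 1839 in Caov-3 against 781, 956 and 1033 in SKOV-3, again without overlap. Its difference was smaller, 1.07 ± 0.12 (SE; limma, adjusted p = 0.000737).

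GCLM encodes the modifier subunit, which raises the catalytic subunit's affinity for its substrates. GCLM 203925_at read 5010, 5014 and 5008 in Caov-3 with siltuximab plus IL-6, with IL-6 and untreated, against 2635, 2383 and 2300 in SKOV-3. The Caov-3 values were nearly the same on the 3 arrays, and the log2 difference between lines was 1.04 ± 0.076 (SE), or 2.05-fold (limma, adjusted p = 0.000183). GCLM 234986_at read 1403, 1349 and 1207 in Caov-3 against 575, 649 and 497 in SKOV-3. Its difference of 1.18 ± 0.11 (SE; limma, adjusted p = 0.00037) was close to that of 203925_at. The third GCLM probe set, 236140_at, behaved unlike these, with 594, 265 and 903 in Caov-3 against 91.9, 216 and 78.0 in SKOV-3. Its lines did not overlap either, but its difference of 2.01 carried an SE of 0.56 (limma, adjusted p = 0.0245). That call was lost in fits without the untreated or the siltuximab plus IL-6 array of either line (GCLM 236140_at log2 1.38 and 1.77, adjusted p = 0.0987 to 0.119 by limma) and with a prior variance without trend (adjusted p = 0.0549).

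**Figure D1:**
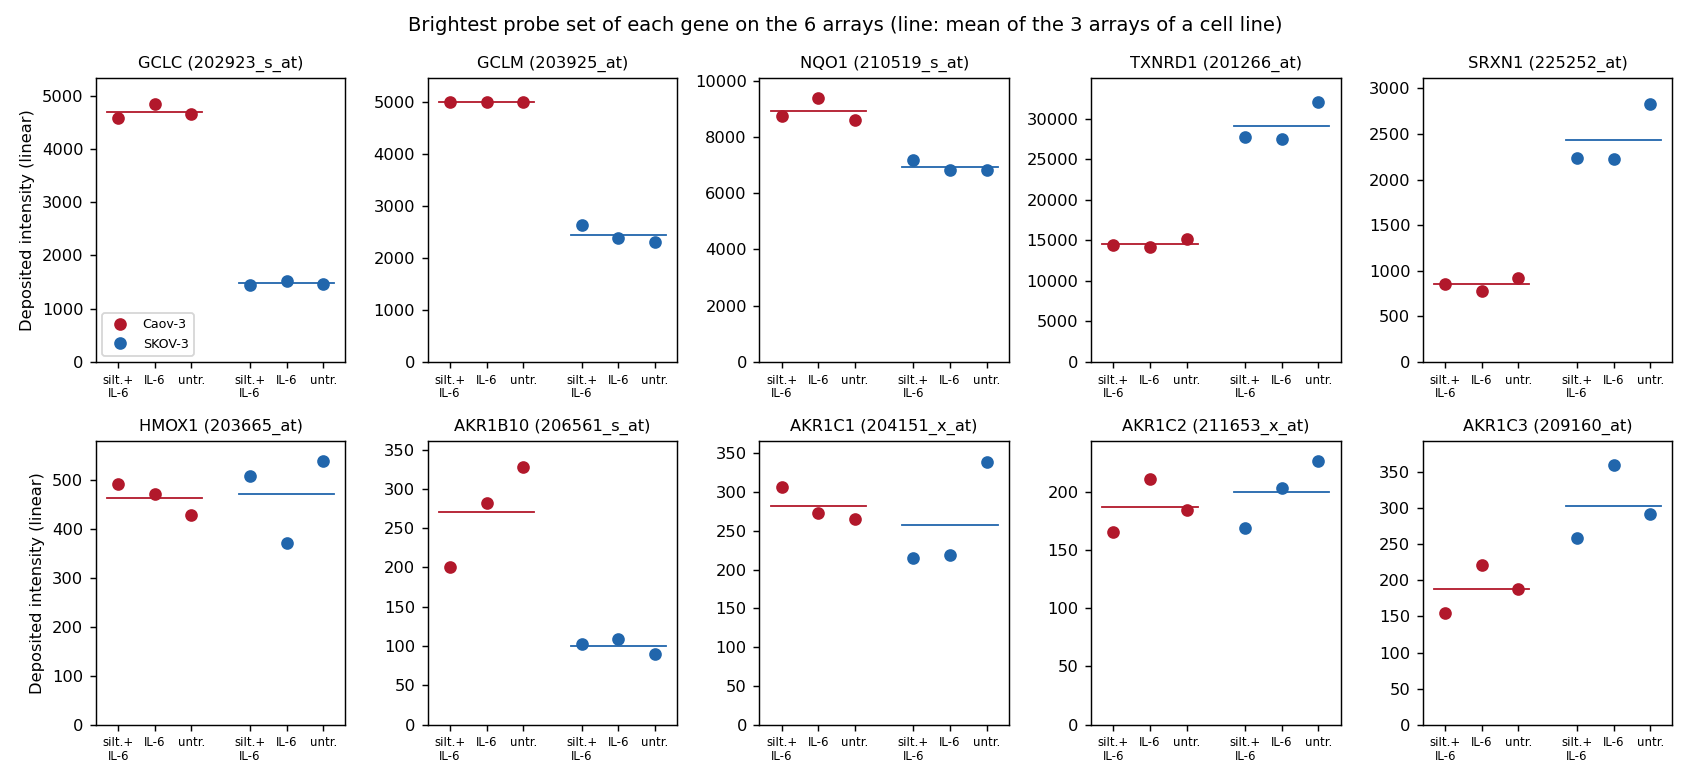
Deposited intensity (linear scale, each panel from 0) of the brightest probe set of each of the 10 genes on the 6 arrays, Caov-3 in red and SKOV-3 in blue. Points are single arrays, and lines are means over the 3 treatments of a line. GCLC, GCLM, NQO1 and AKR1B10 lie above in Caov-3, TXNRD1, SRXN1 and AKR1C3 below, and HMOX1, AKR1C1 and AKR1C2 overlap.

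NQO1 reduces quinones to hydroquinones and is the classic reporter of NRF2 activity. All 3 of its probe sets were higher in Caov-3 without overlap, by small steps. NQO1 210519_s_at read 8759, 9378 and 8592 in Caov-3 with siltuximab plus IL-6, with IL-6 and untreated, against 7178, 6828 and 6807 in SKOV-3, a log2 difference of 0.36 ± 0.066 (SE; limma, adjusted p = 0.00516). NQO1 201468_s_at read 5212, 5309 and 5452 in Caov-3 against 3776, 4120 and 4138 in SKOV-3, a difference of 0.41 ± 0.066 (SE; limma, adjusted p = 0.00319). NQO1 201467_s_at read 3050, 3379 and 2597 in Caov-3 against 2405, 2313 and 2386 in SKOV-3, a difference of 0.34 ± 0.10 (SE; limma, adjusted p = 0.0326). The call on 201467_s_at was lost in fits without the siltuximab plus IL-6 array of either line (NQO1 201467_s_at adjusted p = 0.132 and 0.133 by limma) and with a prior variance without trend (adjusted p = 0.0902). The 3 probe sets thus placed NQO1 1.26-fold to 1.33-fold higher in Caov-3, well below the step of the glutathione synthesis genes.

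TXNRD1 encodes cytosolic thioredoxin reductase, which uses NADPH to keep thioredoxin reduced. TXNRD1 201266_at read 14460, 14133 and 15158 in Caov-3 with siltuximab plus IL-6, with IL-6 and untreated, against 27780, 27432 and 32070 in SKOV-3. The lines did not overlap, and the log2 difference was -0.99 ± 0.059 (SE), 1.99-fold lower in Caov-3 (limma, adjusted p = 9.66e-05). SRXN1 encodes sulfiredoxin, which restores over-oxidised peroxiredoxins. SRXN1 225252_at read 855, 777 and 918 in Caov-3 against 2237, 2226 and 2832 in SKOV-3. Its difference of -1.49 ± 0.093 (SE), 2.81-fold lower in Caov-3, was the most negative among the 17 probe sets (limma, adjusted p = 0.000114). In both lines the untreated array held the highest TXNRD1 and SRXN1 value. HMOX1 encodes haem oxygenase 1, which opens haem to biliverdin, and is under BACH1 as well as NRF2. HMOX1 203665_at read 492, 471 and 428 in Caov-3 against 507, 371 and 538 in SKOV-3, and the lines overlapped. Its difference of -0.01 had a 95% interval of -0.43 to 0.41 (limma, adjusted p = 0.959).

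**Figure D2:**
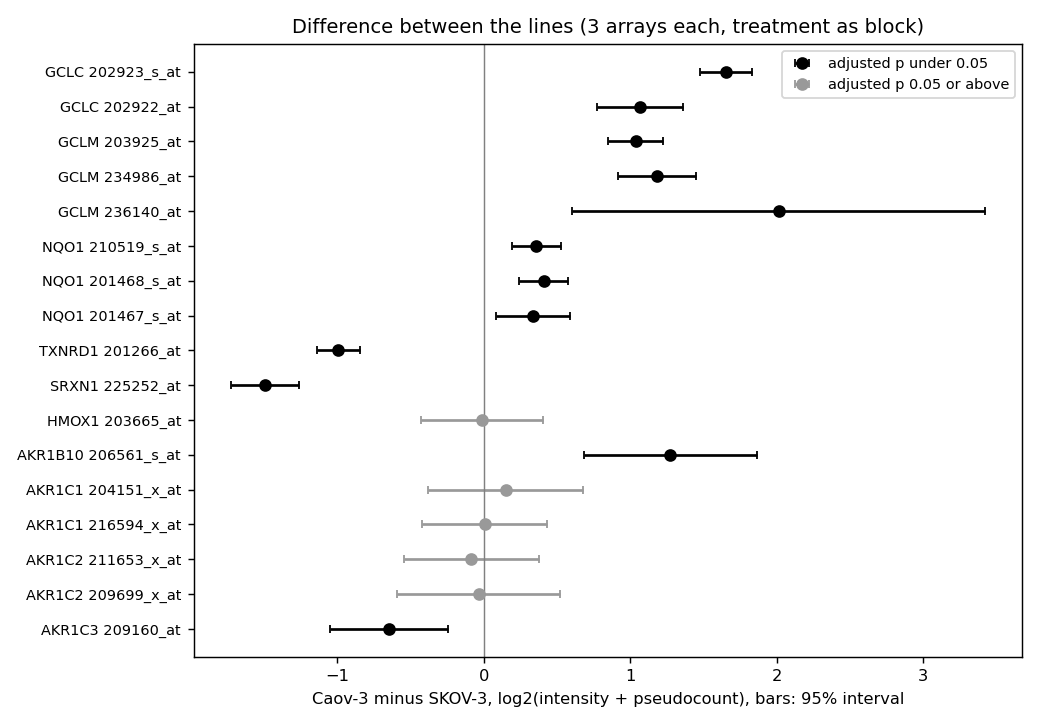
Log2 difference between Caov-3 and SKOV-3 (Caov-3 minus SKOV-3, intensity + 17.1) for the 17 probe sets past the filter, from the limma fit with treatment as a block; points are estimates and bars 95% intervals. Black points are called at an adjusted p under 0.05, 9 to the right of 0 and 3 to the left, and the 5 grey ones have intervals that span 0.

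The aldo-keto reductases reduce carbonyls with NADPH. AKR1B10 takes retinal and other aldehydes, and AKR1C1, AKR1C2 and AKR1C3 act on steroids and prostaglandins. AKR1B10 206561_s_at read 201, 282 and 328 in Caov-3 with siltuximab plus IL-6, with IL-6 and untreated, against 102, 109 and 89.4 in SKOV-3. The lines did not overlap, and AKR1B10 was 2.42-fold higher in Caov-3, a log2 difference of 1.27 ± 0.24 (SE; limma, adjusted p = 0.00542). AKR1B10 and GCLM 236140_at were at or above the filter's median on 3 Caov-3 arrays and 1 SKOV-3 array each, so both entered the fit through Caov-3, the line in which they were higher, and their calls are no support for that direction. The other 15 probe sets were above on all 6 arrays. AKR1C3 209160_at read 154, 221 and 188 in Caov-3 against 258, 361 and 292 in SKOV-3. Its values were 1.57-fold lower in Caov-3, a log2 difference of -0.65 ± 0.16 (SE; limma, adjusted p = 0.0166). The AKR1C3 call was lost in fits without the untreated or the siltuximab plus IL-6 array of either line, where the difference stood at -0.67 and -0.63 (AKR1C3 209160_at adjusted p = 0.0571 to 0.105 by limma).

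AKR1C1 and AKR1C2 were read by probe sets whose names end in _x_at, which marks probes that can also bind related transcripts, so that their values may include each other's RNA and that of AKR1C3. AKR1C1 204151_x_at read 306, 273 and 266 in Caov-3 with siltuximab plus IL-6, with IL-6 and untreated, against 216, 219 and 339 in SKOV-3. The lines overlapped, and the log2 difference of 0.15 had a 95% interval of -0.38 to 0.68 (limma, adjusted p = 0.569). AKR1C1 216594_x_at read 245, 183 and 272 in Caov-3 against 219, 184 and 298 in SKOV-3, a difference of 0.0055 with an interval of -0.42 to 0.43. AKR1C2 211653_x_at read 166, 211 and 184 in Caov-3 against 169, 204 and 227 in SKOV-3, and its difference of -0.08 had an interval of -0.55 to 0.38. AKR1C2 209699_x_at read 196, 162 and 146 in Caov-3 against 148, 201 and 169 in SKOV-3, and its difference of -0.04 had an interval of -0.59 to 0.52. All 4 probe sets overlapped between the lines, and their intervals leave room for differences of up to about the size seen for AKR1C3.

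The 6 probe sets that did not pass the filter (AKR1C1 1555856_s_at, 1555855_at and 217626_at, AKR1C2 244266_at, GCLC 1555330_at and TXNRD1 1561080_at) read 1.58 to 140 over all arrays. GCLC 1555330_at held the highest of these values and passed the median on 1 array, Caov-3 with siltuximab plus IL-6, with 140, 68.6 and 61.1 in Caov-3 against 71.3, 67.2 and 8.03 in SKOV-3. The probe sets of a gene therefore disagreed in signal for AKR1C1, AKR1C2, GCLC and TXNRD1, and in pattern for GCLM. Over the 17 probe sets the median log2 difference between Caov-3 and SKOV-3 was 0.34, against -0.03 over all probe sets tested. With the brightest probe set of each gene the median over the 10 genes was 0.07, against 0.07 over 12290 genes, and 4 genes were called higher and 3 lower, against 37.2% and 30.8% of those 12290. The 9 probe sets without overlap above and the 3 below stand beside 34.4% and 35.5% of all probe sets tested that lay wholly above or below.

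Genes whose pattern over the 6 arrays lay closest to each of the 10 were found as those with the smallest root mean square difference of centred log2 values among 12290 genes. For GCLC these were NAT1 (0.034), GDPD3 (0.051) and MREG (0.056), and for GCLM they were MINPP1 (0.043), MCUR1 (0.050) and MAGT1 (0.050). TXNRD1 lay closest to MAPK1IP1L (0.015), FKBP5 (0.030) and EPM2AIP1 (0.033), and SRXN1 to TOP1 (0.066), LIAT1 (0.067) and ZFP41 (0.069). No gene of the set was among the 3 nearest of another. NQO1 lay closest to TOMM70 (0.026), SMC3 (0.032) and SLC27A2 (0.033), and HMOX1 to ZNF784 (0.065), RP9P (0.076) and BRMS1 (0.078). Among the reductases, AKR1B10 lay closest to TP53TG1 (0.077), SLC37A1 (0.10) and NCK1-DT (0.11), and AKR1C3 to CD99L2 (0.083), PIP4K2B (0.095) and TRPS1 (0.11). AKR1C1 lay closest to DENND2B (0.062), OTUD7B (0.070) and FUOM (0.074), and AKR1C2 to HIVEP2 (0.049), CGGBP1 (0.052) and MMAB (0.053). These distances describe 6 arrays that share 2 lines.

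The regulators of the pathway differed between the lines in both directions. Of 12 regulators listed, 11 had a probe set of their own (MAFK had none) and all 11 passed the filter, 3 higher and 5 lower in Caov-3, against 37.2% and 30.8% of all genes, with a median log2 difference of -0.19 against 0.07 over all genes. NFE2L2, which encodes NRF2, read 7359, 7634 and 6897 in Caov-3 with siltuximab plus IL-6, with IL-6 and untreated, against 8229, 8487 and 8186 in SKOV-3. That is a difference of -0.19 ± 0.061 (SE; limma, adjusted p = 0.0414), with no overlap. This call and the others of the list rest on the brightest probe set of each gene. They were not followed in fits with other settings or without single arrays. KEAP1, its inhibitor, read 1768, 2011 and 1937 in Caov-3 against 1562, 1509 and 1537 in SKOV-3, a difference of 0.31 ± 0.089 (SE; limma, adjusted p = 0.0282). BACH1, the repressor at the same elements, read 774, 799 and 456 in Caov-3 against 2215, 2244 and 2019 in SKOV-3, 3.23-fold lower in Caov-3 (log2 -1.69 ± 0.15, SE). RBX1, the RING subunit of the ligase, had the largest step of the list, with 22126, 22598 and 20634 in Caov-3 against 4163, 4077 and 4085 in SKOV-3 (log2 2.40 ± 0.062, SE). CUL3, its scaffold, differed by -0.19 (limma, adjusted p = 0.0547). Of the small MAF partners, MAFG was lower in Caov-3 (-0.59 ± 0.10, SE) and MAFF was not called (0.28 ± 0.13, SE). The related factor NFE2L1 was lower (-0.64 ± 0.069, SE), as was SQSTM1 (-0.31 ± 0.080, SE), which draws KEAP1 into autophagy. DPP3, a KEAP1 binding protein, was higher (0.88 ± 0.12, SE), and PGAM5 was not called (0.08 ± 0.13, SE).

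Of 34 other NRF2 targets listed, 31 had a probe set of their own and 26 passed the filter, 17 higher and 5 lower in Caov-3, against 37.2% and 30.8% of all genes, with a median log2 difference of 0.62 against 0.07 over all genes. Of these 22 genes, 2 (GSTM3 and CES1) met the filter only in the line where they were higher. GSTM3, a glutathione transferase, read 2574, 2850 and 2570 in Caov-3 with siltuximab plus IL-6, with IL-6 and untreated, against 23.8, 5.58 and 32.7 in SKOV-3, where it was below the median on every array. ABCC3, an exporter of glutathione and glucuronide conjugates, was 9.89-fold higher in Caov-3, and the carbonyl reductase CBR3 was 6.40-fold higher. The epoxide hydrolase EPHX1 was 4.44-fold higher, and the NADPH source IDH1 was 3.76-fold higher. CES1, a carboxylesterase, read 16.2, 20.4 and 7.21 in Caov-3, below the median on every array, against 113, 76.6 and 138 in SKOV-3. Among the other lower genes were SLC7A11, the cystine importer that feeds glutathione synthesis, with a log2 difference of its brightest probe set of -1.80 ± 0.11 (SE), and the exporter ABCC1 (-1.12 ± 0.13, SE). The other two were thioredoxin itself, TXN (-0.30 ± 0.088, SE), and the ferritin light chain FTL (-0.39 ± 0.064, SE). PRDX1, a peroxiredoxin that TXN reduces and SRXN1 repairs, was higher in Caov-3 (0.29 ± 0.059, SE; limma, adjusted p = 0.00752), with overlapping values of 22314, 24219 and 27708 in Caov-3 against 19347, 18844 and 22471 in SKOV-3. Of 11 other aldo-keto reductases listed, 7 had a probe set of their own, 4 passed the filter and 0 were called (limma), namely KCNAB2 (-0.33 ± 0.18), AKR1E2 (-0.31 ± 0.18), AKR7A2 (0.01 ± 0.14) and AKR7A3 (0.12 ± 0.15), each with its SE. At an unadjusted p under 0.05 the count was also 0.

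**Figure D3:**
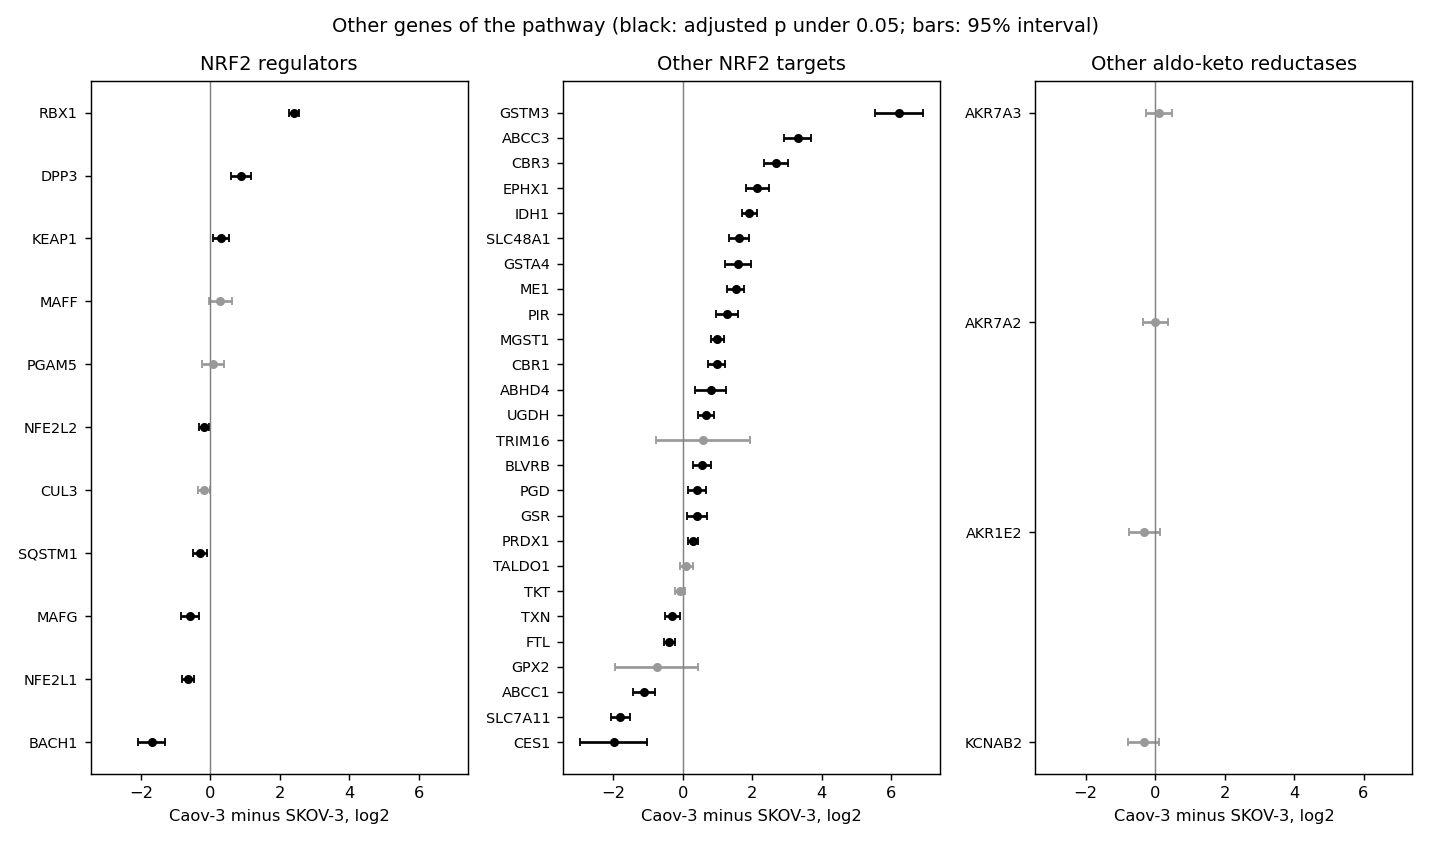
Log2 difference between Caov-3 and SKOV-3 (Caov-3 minus SKOV-3) of the brightest probe set of 11 NRF2 regulators, 26 other NRF2 targets and 4 other aldo-keto reductases past the filter, with 95% intervals from limma. Black points are called at an adjusted p under 0.05; 17 of the targets lie to the right of 0 and called, 5 to the left, and none of the reductases is black.

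IL-6 for 1 h and siltuximab before it left these genes without a called change. The additive limma fit over both lines called 0 of 23169 probe sets (0%) for siltuximab plus IL-6 against IL-6, 0 (0%) for IL-6 against untreated and 0 (0%) for siltuximab plus IL-6 against untreated. At an unadjusted p under 0.05 these fits held 577, 1874 and 1046 probe sets, of which 0, 2 and 0 were among the 17. The 2 were AKR1C1 216594_x_at, with a log2 difference of -0.59 between IL-6 and untreated (unadjusted p = 0.033 by limma, interval -1.11 to -0.07), and SRXN1 225252_at, with -0.29 (unadjusted p = 0.0464 by limma, interval -0.57 to -0.0065). The smallest adjusted p over the 17 was 0.971 for siltuximab plus IL-6 against IL-6, 0.597 for IL-6 against untreated and 1 for siltuximab plus IL-6 against untreated (limma, Benjamini-Hochberg). The fit estimates a change common to both lines on 2 residual degrees of freedom, and a change in 1 line alone cannot be tested.

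Over both lines the 17 differences ran from -0.47 to 0.31 for siltuximab plus IL-6 against IL-6, from -0.59 to 0.27 for IL-6 against untreated and from -0.28 to 0.21 for siltuximab plus IL-6 against untreated. For the brightest probe set of the glutathione synthesis genes the intervals were narrow. The difference between IL-6 and untreated was 0.05 for GCLC 202923_s_at (95% interval -0.16 to 0.27) and 0.03 for GCLM 203925_at (-0.21 to 0.26). For NQO1 210519_s_at it was 0.07 (-0.14 to 0.27), and for TXNRD1 201266_at it was -0.16 (-0.34 to 0.02). HMOX1, an early stress gene, had a wide interval of -0.70 to 0.32 around -0.19. The 3 comparisons share arrays, so the values of 1 array enter more than 1 of them.

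AKR1C3 held the lowest value for siltuximab plus IL-6 against IL-6, with a log2 fold of -0.47 in Caov-3 and -0.46 in SKOV-3. Its IL-6 array was the highest of the 3 in both lines and its siltuximab plus IL-6 array the lowest, but the fitted difference of -0.47 ± 0.20 (SE) did not pass (unadjusted p = 0.0607, adjusted p = 0.971, limma). SRXN1 had a log2 fold of IL-6 over untreated of -0.24 in Caov-3 and -0.34 in SKOV-3. AKR1C1 216594_x_at had -0.53 and -0.65 for the same comparison, while AKR1C1 204151_x_at had 0.03 and -0.60. In Caov-3, probe sets as bright as these 2 scattered by 0.47 and 0.40 (robust SD), and the gap between them was not tested. HMOX1 had 0.14 in Caov-3 and -0.52 in SKOV-3, and for siltuximab plus IL-6 over IL-6 it had 0.06 and 0.44. AKR1B10 had -0.67 for siltuximab plus IL-6 over untreated in Caov-3. In SKOV-3 both of its arrays in that comparison were below the median, so no fold is given. These folds set 1 array against 1 array and have no replicate check.

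At 2-fold or more between single arrays, few of the probe sets differed. In Caov-3 this held for 1 of 18 probe sets (higher) for siltuximab plus IL-6 over IL-6, against 7.24% of all probe sets (6.51% higher and 0.728% lower). For IL-6 over untreated in Caov-3 it held for 1 of 17 (lower), against 8.71% (1.07% higher and 7.64% lower), and for siltuximab plus IL-6 over untreated in Caov-3 for 1 of 18 (higher), against 1.42% (0.63% higher and 0.788% lower). In SKOV-3 the counts were 1 of 17 (lower) against 1.3% for siltuximab plus IL-6 over IL-6 (0.5% higher and 0.804% lower), 1 of 17 (higher) against 2.64% for IL-6 over untreated (1.34% higher and 1.3% lower), and 0 of 15 against 2.12% for siltuximab plus IL-6 over untreated (0.835% higher and 1.29% lower). All but 1 of these were GCLM 236140_at. The exception was the dim GCLC 1555330_at, with a log2 fold of 1.01 for siltuximab plus IL-6 over untreated in Caov-3, where probe sets of like brightness scattered by 0.60 (robust SD). The Caov-3 IL-6 array held far more low values than the others, 1668 probe sets at least 2-fold below untreated against 234 above. Its ACTB 5′ to 3′ ratio was low, while its GAPDH ratio lay within the range of the other arrays. A spike-in RNA signal on that array was 1.502 times that of the untreated Caov-3 array, and on the SKOV-3 IL-6 array it was 1.54 times that of the untreated SKOV-3 array. The part of these in the folds was not tested.

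**Figure D4:**
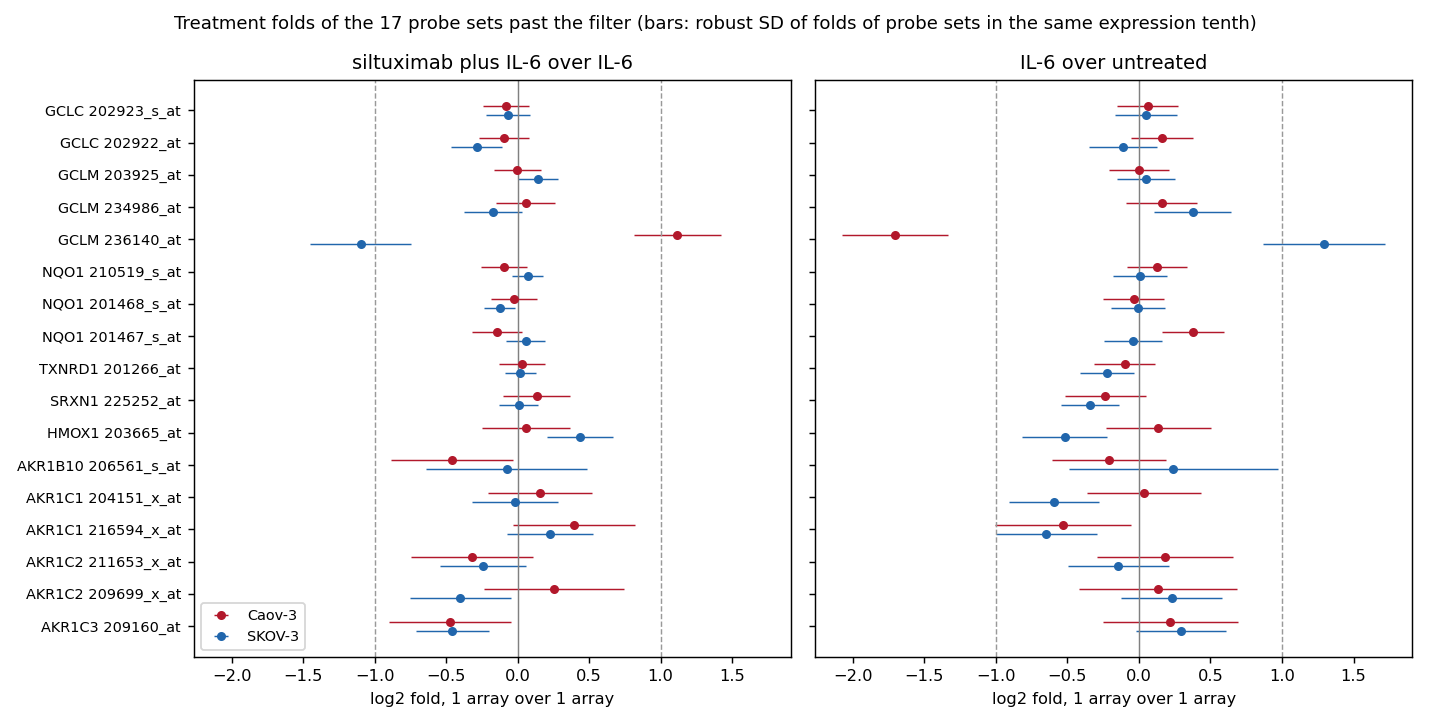
Log2 folds of 1 array over 1 array for the 17 probe sets past the filter, siltuximab plus IL-6 over IL-6 in the left panel and IL-6 over untreated in the right, Caov-3 in red and SKOV-3 in blue. Bars are the robust SD of the folds of all probe sets of like brightness, not replicate errors, and dashed lines mark 2-fold. Only GCLM 236140_at lies outside the dashed lines, on opposite sides in the 2 lines.

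GCLM 236140_at had folds of opposite sign in the 2 lines. Its log2 fold of siltuximab plus IL-6 over IL-6 was 1.12 in Caov-3 and -1.10 in SKOV-3, and of IL-6 over untreated -1.71 in Caov-3 and 1.30 in SKOV-3. In SKOV-3 its signal reached the median only with IL-6, so both folds there set that array against an array below the median. Probe sets of like brightness scattered by 0.31 and 0.35 (robust SD) in the first comparison and by 0.37 and 0.43 in the second. The other two GCLM probe sets did not show this. GCLM 203925_at had log2 folds of IL-6 over untreated of 0.0015 in Caov-3 and 0.05 in SKOV-3, and GCLM 234986_at had 0.16 and 0.37. In a fit without the SKOV-3 IL-6 array, GCLM 236140_at was called, at -1.51 for IL-6 against untreated (limma, adjusted p = 0.0202) and at 1.31 for siltuximab plus IL-6 against IL-6 (adjusted p = 0.0451), when 2113 and 1480 probe sets were called in all. Those values rest on the Caov-3 IL-6 array. Among 19156 probe sets that could be read in both lines, 190 were at least 2-fold higher with IL-6 in SKOV-3 and 1391 were lower by 2-fold or more in Caov-3. Of these, 84 met both, 44.2% of the first list and 6.04% of the second. Among all 19156, 7.26% were lower by 2-fold or more in Caov-3.

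**Figure D5:**
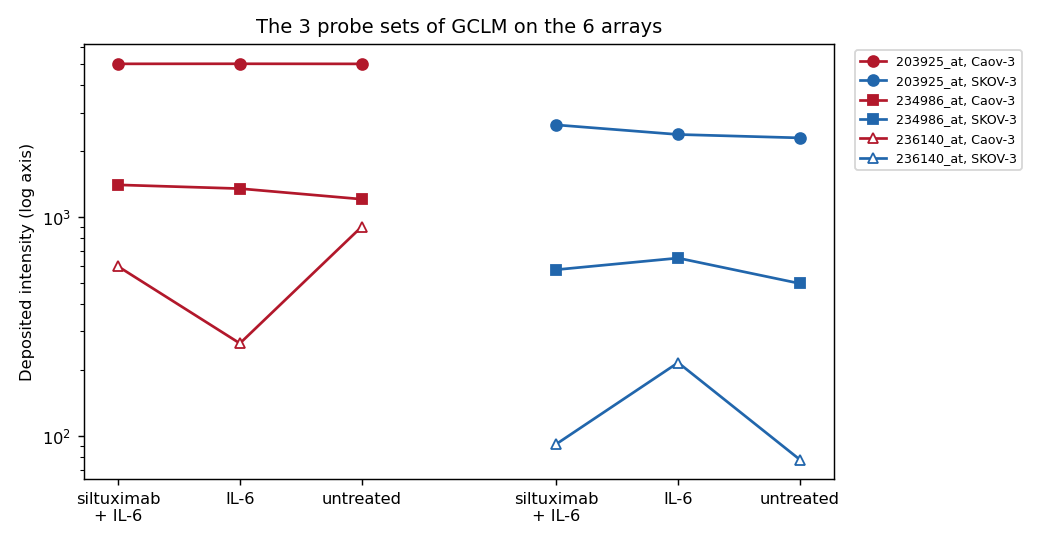
Deposited intensity (log axis) of the 3 GCLM probe sets on the Caov-3 arrays (red, left) and the SKOV-3 arrays (blue, right); each point is 1 array and lines join the arrays of 1 probe set. 203925_at and 234986_at stay level within a line, while 236140_at reads 265 with IL-6 in Caov-3, where the other arrays read 594 and 903, and 216 with IL-6 in SKOV-3, where they read 91.9 and 78.0.

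The other genes of the pathway gave 0 called changes in the 3 treatment fits (limma), in each list. At an unadjusted p under 0.05, siltuximab plus IL-6 against IL-6 held 0 of 11 regulators, 1 of 26 other targets and 0 of 4 other reductases, beside 2.36% of the 12290 genes. IL-6 against untreated held 1, 4 and 0 of them, beside 8.36%, and siltuximab plus IL-6 against untreated held 0, 3 and 0, beside 4.89%. Among the other NRF2 targets, TRIM16 had the largest absolute mean fold of IL-6 over untreated, with log2 values of -2.28 in Caov-3 and 0.63 in SKOV-3. TRIM16, a ubiquitin ligase reported to stabilise NRF2, read 513, 212 and 1093 in Caov-3 with siltuximab plus IL-6, with IL-6 and untreated, against 230, 487 and 308 in SKOV-3. Like GCLM 236140_at, it was lowest with IL-6 in Caov-3 and highest with IL-6 in SKOV-3. ABCC3 had -0.17 and -0.89. GSTM3 had 0.15 in Caov-3, and in SKOV-3, where both arrays were below the median, no fold is given. It was named for its mean IL-6 fold, which took in that SKOV-3 fold and so rests on signals below the median. Among the regulators, NFE2L2 had 0.15 in Caov-3 and 0.05 in SKOV-3, KEAP1 0.05 and -0.03, and BACH1 0.79 and 0.15. Of the other reductases, AKR7A3 had 0.32 and 0.23, AKR1E2 -0.14 and -0.37, and KCNAB2 0.08 and -0.53.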

How the data were processed

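The deposited values are linear signal intensities per probe set, made by the authors with Affymetrix Expression Console and MAS5 (no versions stated) per the submitters' processing notes. Each array had been scaled before deposit, since its 2% trimmed mean intensity was 500.1 (medians over all probe sets 72.8 to 89.8). Same-line arrays correlated at 0.962 to 0.980 over probe sets and different-line arrays at 0.867 to 0.883. Groups came from the sample titles.

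Of 54675 probe sets, 62 were controls, 41091 had 1 gene symbol, 1801 several and 11721 none. All 23 probe sets of the 10 genes matched a current gene record by identifier, and 0 symbols changed. Intensities plus a pseudocount of 17.1 (the 20th percentile) were taken to log2, which understates folds of dim probe sets. Probe sets at or above the array median (over probe sets with 1 gene symbol) on 2 or more arrays entered limma 3.58.1 (R 4.3.3) with line and treatment as factors, a trended prior variance, 2 residual degrees of freedom and Benjamini-Hochberg adjustment at 0.05. Folds of 1 array over 1 array have no p-value and needed the higher array at its median or above. Precision is limited by having 6 arrays.

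All probe sets of the 10 genes are given, and of the other lists the 6 targets and 4 reductases with the largest line difference and the 3 with the largest mean IL-6 fold, beside the main regulators. The other lower targets, PRDX1, DPP3, NFE2L1, PGAM5, RBX1 and SQSTM1 and the count of probe sets with folds of opposite sign were chosen after their values were seen. The genes, lists and tests were chosen with earlier results of these data known. Alternatives were 2 other pseudocounts, quantile and cyclic loess normalization, 2 filters, 1 or averaged probe sets per gene, no _x_at or _s_at probe sets, no prior trend, no block, 1.5-fold, and leaving out each array. They were followed by gene for the 10 genes only, so calls on the regulators, other targets and other reductases were not checked under them.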

Additional observations from a re-analysis of the deposited data

Results flagged for a closer look

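GCLM 236140_at stood out because its folds under the same treatment had opposite signs in the 2 lines, each past 1.5-fold. Its log2 fold of siltuximab plus IL-6 over IL-6 was 1.12 in Caov-3 and -1.10 in SKOV-3. Its log2 fold of IL-6 over untreated was -1.71 in Caov-3 and 1.30 in SKOV-3. Each value sets 1 array against 1 array, and the difference between the lines was not tested, since an interaction term leaves no residual degree of freedom. Both folds in a line share its IL-6 array, so they are not separate observations. In SKOV-3 this probe set reached the median on the IL-6 array only, and the other SKOV-3 arrays lay below it.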

How the results depend on the processing

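In the comparison of Caov-3 with SKOV-3, the brightest probe sets of GCLC, GCLM, NQO1, TXNRD1 and SRXN1 stayed called in the same direction under every alternative that kept them. AKR1B10 also stayed called, but it met the filter through Caov-3, where it was higher, so its call is no support for that direction. The 12 calls of 17 became 7 of 10 with each gene's brightest probe set. They became 7 of 8 with the average of its probe sets and 7 of 8 without _x_at and _s_at probe sets. Each of these tests fewer probe sets. Over all probe sets the 14556 calls of 23169 became 8707 of 12290, 7227 of 11112 and 8849 of 14043 under these. With the filter at the 75th percentile, 7 of 9 were higher and 2 lower, beside 9378 calls of 12291 over all probe sets. AKR1C3 without 1 array ranged from -0.67 to -0.63 and was not called in 4 of the 6 such fits. Between the lines, leaving out a treatment's array in Caov-3 or in SKOV-3 gives the same difference, so the 6 fits are not separate checks. Leaving out 1 array gave 0 to 1480 calls over all probe sets (0 to 1 of the 17) for siltuximab plus IL-6 against IL-6, 0 to 2113 (0 to 1) for IL-6 against untreated and 0 to 8 for siltuximab plus IL-6 against untreated. The highest counts of the first and second came without the SKOV-3 IL-6 array, and the second gave 5 when the Caov-3 IL-6 array was left out. The third gave 7 and 8 when the SKOV-3 IL-6 or the Caov-3 IL-6 array was left out. The cause was not tested. The counts at 2-fold between single arrays changed as follows (at 1.5-fold, 15.1%, 7.1%, 10.2% and 8.3% of all probe sets passed in the 4 comparisons named with it, in that order). For siltuximab plus IL-6 over IL-6 in Caov-3 the count of 1 became 2 at 1.5-fold or with a pseudocount of 1, and 4 of 23 without a filter. It became 0 with a pseudocount at the median, quantile normalization, cyclic loess, the filter at the 75th percentile, or the brightest or mean probe set. Over all probe sets, a pseudocount of 1 gave 1565 higher and 198 lower of 21707, and no filter 3300 and 1532 of 41091. The settings that gave 0 held, in that order, 691 and 8 of 21707, 1134 and 272 of 21804, and 1186 and 245 of 21789. The last 3 of them held 377 and 9 of 10917, 280 and 86 of 11829, and 263 and 49 of 10338. For IL-6 over untreated in Caov-3 it became 2 of 23 without a filter and 0 with the brightest or mean probe set. Over all probe sets no filter gave 1633 higher and 3797 lower of 41091. The brightest probe set gave 128 and 336 of 11862 and the mean 65 and 372 of 10379. For siltuximab plus IL-6 over untreated in Caov-3 it became 3 at 1.5-fold and 2 of 23 without a filter. It became 0 with a pseudocount at the median, the filter at the 75th percentile, or the brightest or mean probe set. Over all probe sets no filter gave 1670 higher and 1849 lower of 41091. The settings that gave 0 held, in that order, 22 and 21 of 21438, 7 and 11 of 10709, 57 and 66 of 11629, and 37 and 54 of 10252. In SKOV-3 the count for siltuximab plus IL-6 over IL-6 became 0 with a pseudocount at the median, quantile normalization, the filter at the 75th percentile, or the brightest or mean probe set. All probe sets held, in that order, 5 higher and 18 lower of 21381, 125 and 128 of 21387, 2 and 19 of 10651, 56 and 61 of 11238, and 34 and 36 of 10241. For IL-6 over untreated in SKOV-3 it became 3 at 1.5-fold and 2 of 23 without a filter, beside 1532 higher and 2268 lower of 41091. It became 0 with a pseudocount at the median, the filter at the 75th percentile, or the brightest or mean probe set. All probe sets there held 50 and 25 of 21591, 59 and 4 of 10770, 74 and 163 of 11411, and 52 and 97 of 10288. For siltuximab plus IL-6 over untreated in SKOV-3 the count of 0 became 1 at 1.5-fold or without a filter. Without a filter all probe sets held 1356 and 2287 of 41091.

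Signs turned only among differences that were not called. HMOX1 between the lines was 0.047 with cyclic loess. Between siltuximab plus IL-6 and IL-6, NQO1 was 0.0028 with quantile normalization and 0.011 with cyclic loess, and GCLC 0.070 with the mean of all probe sets. For IL-6 against untreated, AKR1B10 was -0.014 with a pseudocount at the median, GCLM -0.0044 with quantile normalization and TXNRD1 0.055 with the mean of all probe sets. Between siltuximab plus IL-6 and untreated, TXNRD1 was 0.00064 under quantile normalization and 0.13 for the average of a gene's probe sets, and GCLC 0.41 for that average, which takes in the dim 1555330_at. Leaving out 1 array, the difference between the lines ran from -0.016 to 0.39 for AKR1C1, from -0.15 to 0.012 for AKR1C2 and from -0.18 to 0.14 for HMOX1. For siltuximab plus IL-6 against IL-6 it ran from -0.57 to 0.035 for AKR1B10, -0.18 to 0.32 for AKR1C1, -0.013 to 0.16 for GCLM, -0.011 to 0.50 for HMOX1, -0.086 to 0.060 for NQO1, -0.020 to 0.16 for SRXN1 and -0.013 to 0.064 for TXNRD1. For IL-6 against untreated it ran from -0.30 to 0.34 for AKR1B10, -0.64 to 0.079 for AKR1C1, -0.13 to 0.16 for AKR1C2, -0.035 to 0.087 for GCLM, -0.45 to 0.066 for HMOX1 and -0.0076 to 0.14 for NQO1. For siltuximab plus IL-6 against untreated it ran from -0.57 to 0.069 for AKR1B10, -0.57 to 0.15 for AKR1C1, -0.18 to 0.29 for HMOX1 and -0.0027 to 0.11 for NQO1. The line block matched the treatments within a line, and replicates could not be paired because a treatment in a line has 1 array. Dropping the line or treatment block moved no call of the 17. Signal limits AKR1B10 in SKOV-3 and the 6 dim probe sets, which read near or under the array medians, where the robust SD of single-array folds reached 1.07. It also limits GCLM 236140_at in SKOV-3, which was under the median there except with IL-6.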
